A study of Arabidopsis thaliana with 6 samples.

Results

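The 10 genes described here make carotenoids and run the xanthophyll cycle in Arabidopsis thaliana: PSY, PDS, LCYB, LUT2, LUT1, LUT5, BCH1, BCH2, ZEP and NPQ1. They were chosen by locus for their place in the pathway, with earlier results of these data known. All 10 were found among the 32962 genes of the deposited table. Their transcripts were compared between 3 libraries of EsANAC029-OE and 3 of wild type, the Col-0 accession, by RNA sequencing of seedlings at 25 days of age, grown at 25 °C in days of 16 h light and 8 h dark. EsANAC029-OE seedlings overexpress EsANAC029, which encodes a NAC family factor from Elymus sibiricus, a forage grass. The sources used here do not give the transgene promoter, the number of lines behind the 3 libraries or any pooling of plants. The libraries of a group are therefore treated as separate samples, and the p-values measure only the spread between them, which may be technical.

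Carotenoids are made in plastids from geranylgeranyl diphosphate. Phytoene synthase commits this precursor to the pathway, desaturases and isomerases turn phytoene into lycopene, and lycopene cyclases then split the flow into a branch to lutein and a branch to beta-carotene and zeaxanthin. In leaves these pigments sit in the light-harvesting antenna. In the xanthophyll cycle, zeaxanthin epoxidase converts zeaxanthin to violaxanthin, and violaxanthin de-epoxidase turns it back in strong light, when excess energy has to be shed as heat. Violaxanthin and neoxanthin are also the source of the hormone abscisic acid.

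Transcripts of 3 pathway genes were lower in the overexpressor, and the deepest fall was in the xanthophyll cycle. ZEP, PDS and NPQ1 fell, no member rose, and 7 of the 10 did not pass the test by limma. ZEP in EsANAC029-OE averaged 17.15% of its wild-type level, NPQ1 32.8% and PDS 49.4%. BCH1 stood at 103% of wild type. The median log2 fold change of the 10 members was −0.99, against −0.00914 over all 17221 tested genes. A gene counts as risen or fallen when its adjusted p by limma, computed over all tested genes, was under 0.05. By that rule 3.58% of tested genes fell, 4.31% rose and 7.89% changed in either direction. At an unadjusted p under 0.05 there were 4 members, all lower in the overexpressor, against 28.3% of tested genes. The members that fell numbered 1 without EsANAC029-OE replicate 2 or without wild type replicate 1 or 2, and 0 without wild type replicate 3. With a replicate block, a term for the replicate number, 0 members fell.

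The libraries held 19608819 to 21715274 reads in genes, of which BCH2 had 16 to 169 and ZEP 1041 to 6765 per library. Levels are given as FPKM, fragments per kilobase of gene length scaled by an effective library size. The first EsANAC029-OE library was unlike its fellows. Its correlation with them over tested genes was 0.821 to 0.827, against 0.942 between replicates 2 and 3 and 0.967 to 0.977 among wild-type libraries. The libraries are labelled as seedlings. Green-leaf markers (2 Rubisco small subunit genes, 2 antenna genes and Rubisco activase) summed to 4762, 16155 and 25439 FPKM in EsANAC029-OE replicates 1, 2 and 3 and to 47259 to 56675 FPKM in wild type. Of 5 root markers only PYK10 reached 1 FPKM, and CASP1, PIN2, COBL9 and EXPA7 stayed at or near 0 in each library. Seed markers summed to at most 0.0862 FPKM. Flower markers summed to 3.79 FPKM in EsANAC029-OE replicate 2, the library with PYK10 at 104 FPKM, and to 0.438 to 1.24 FPKM elsewhere. Guard cell markers (MYB60 and FAMA) summed to 15.2, 12.1 and 17.1 FPKM in EsANAC029-OE and to 20.3, 19.6 and 22.6 FPKM in wild type, lower in each overexpressor library. Taken singly, MYB60 was lower in each overexpressor library, while FAMA overlapped. FAMA had 13.0, 8.08 and 10.4 FPKM in EsANAC029-OE and 11.6, 12.2 and 12.6 FPKM in wild type. With scaling by library size alone, the difference between group means of the guard cell sum shrank from −6.06 to −1.62 FPKM. Phloem markers (APL and SUC2) summed to 164, 68.2 and 88.1 FPKM in EsANAC029-OE and to 133, 160 and 137 FPKM in wild type, with overlap. The part of these markers in the results was not tested.

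The sequence just upstream of 4 members is printed here to show the genes that fell, PDS and ZEP, beside PSY, the entry gene of the pathway, and BCH1, whose level was near that of wild type. Each line is the 250 bases that end 1 base before the annotated start of the gene, 5′ to 3′ on the strand of the gene. The bases were read from the RefSeq copy of TAIR10.1 at the coordinates of the deposited table, which are the same in both for all 10 members. No other annotated gene lies in these 4 windows, while that of NPQ1 overlaps 1 other gene and is not shown. The windows of LCYB, LUT2 and LUT1 also overlap 1 other gene each, and they are counted below like the rest. Capitals mark matches on either strand to ATCTA, an element of the PSY promoter that the factor RAP2.2 binds, and to CACG, the core of sites bound by NAC factors.
ZEP, chr5:26757403-26757652, minus strand: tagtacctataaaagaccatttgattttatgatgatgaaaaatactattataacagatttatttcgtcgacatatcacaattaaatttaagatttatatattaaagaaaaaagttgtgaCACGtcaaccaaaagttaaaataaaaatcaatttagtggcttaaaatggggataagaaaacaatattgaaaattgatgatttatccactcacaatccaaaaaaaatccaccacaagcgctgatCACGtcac
PDS, chr4:8195321-8195570, minus strand: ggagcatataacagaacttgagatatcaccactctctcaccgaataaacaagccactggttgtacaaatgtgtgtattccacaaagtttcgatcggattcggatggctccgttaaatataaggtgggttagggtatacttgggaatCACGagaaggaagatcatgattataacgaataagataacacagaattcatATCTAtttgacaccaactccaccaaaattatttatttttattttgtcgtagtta
PSY, chr5:5662998-5663247, minus strand: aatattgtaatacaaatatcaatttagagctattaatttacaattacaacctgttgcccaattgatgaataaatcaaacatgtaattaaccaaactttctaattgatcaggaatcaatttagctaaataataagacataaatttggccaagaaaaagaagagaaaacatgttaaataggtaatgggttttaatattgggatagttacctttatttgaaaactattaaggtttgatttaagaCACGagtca
BCH1, chr4:13096050-13096299, minus strand: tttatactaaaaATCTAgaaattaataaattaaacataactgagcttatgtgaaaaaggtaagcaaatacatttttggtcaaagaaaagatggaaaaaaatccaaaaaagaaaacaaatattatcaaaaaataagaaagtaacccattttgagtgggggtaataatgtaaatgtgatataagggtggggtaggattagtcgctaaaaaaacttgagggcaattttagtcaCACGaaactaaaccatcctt
The core CACG was present in 8 of the 10 members and in 45.6% of 27419 windows of the same length before protein-coding genes. The ZEP window holds it at 2 places, and LUT5 has it at 4. The windows of LCYB and NPQ1 hold none. ATCTA was in the windows of PDS, LUT2 and BCH1 and in 49.2% of all windows. The G-box CACGTG, a motif bound by PIF1 and HY5, was in 1 member, BCH2, and in 6.48% of all windows, and its letters contain CACG. The evening element AAAATATCT, a motif of clock-controlled genes, was in no member and in 2.36% of all windows.

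At the entry to the pathway PDS fell and PSY did not pass the test. PSY, phytoene synthase (AT5G17230, TAIR10 chromosome 5, 5659554 to 5662997), had 36.4, 61.8 and 105.9 FPKM in EsANAC029-OE replicates 1, 2 and 3, against 103.3, 102.5 and 104.3 FPKM in wild type. The overexpressor libraries were widely spread, with replicate 3 just above wild type and replicate 1 lowest. The log2 difference of PSY was −0.73 (SE 0.38, limma adjusted p = 0.262).
PDS, phytoene desaturase, the target of bleaching herbicides (AT4G14210, chromosome 4, 8190190 to 8195320), had 26.4, 29.6 and 35.1 FPKM in EsANAC029-OE and 60.3, 59.0 and 65.4 FPKM in wild type. Each overexpressor library lay below each wild-type library. PDS fell by 1.00 on the log2 scale (SE 0.167, limma adjusted p = 0.0263). Its call was lost with scaling by library size alone (limma adjusted p = 0.0562), and in fits without EsANAC029-OE replicate 2 (0.0792) or without wild type replicate 1, 2 or 3 (0.113, 0.114 and 0.135). It was also lost with a replicate block (limma adjusted p = 0.0982).

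**Figure D1:**
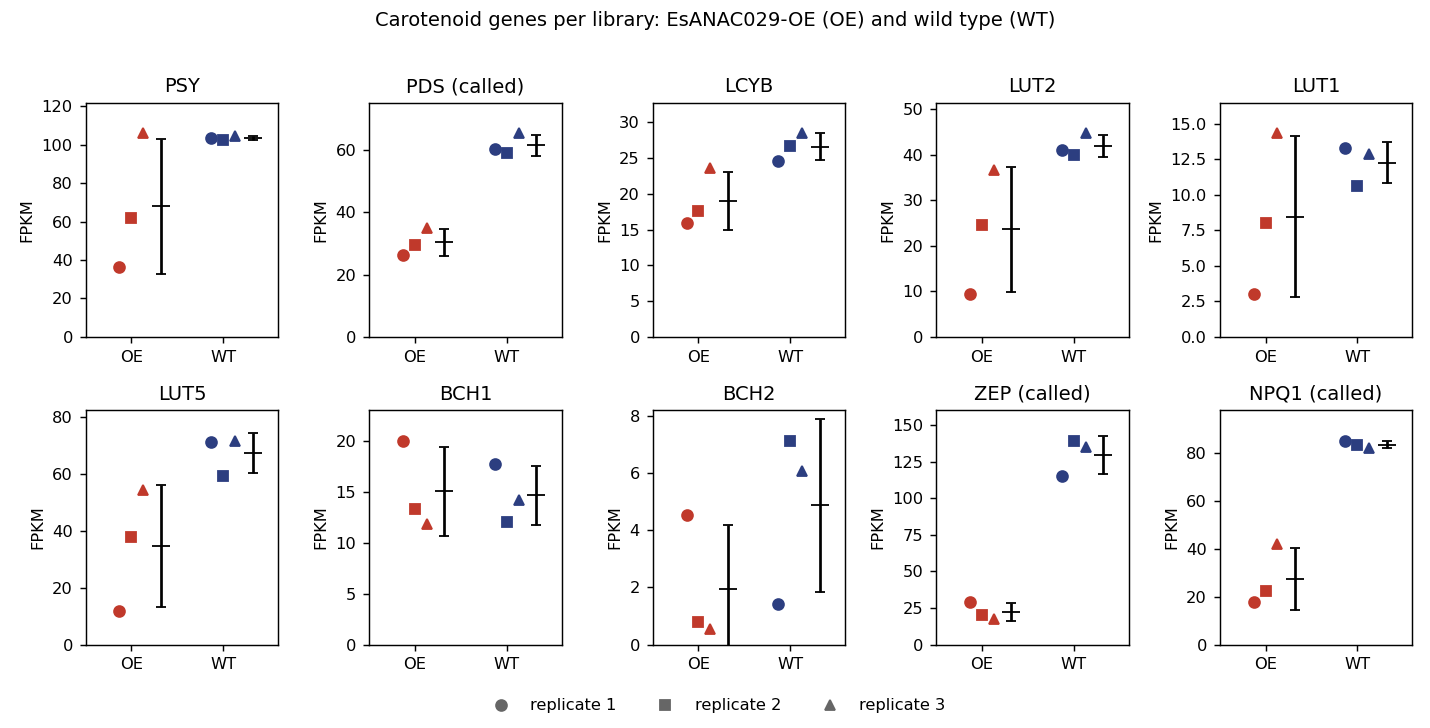
FPKM of each of the 10 members in each library, with EsANAC029-OE (OE, red) left of wild type (WT, blue) and a symbol for each replicate number. The bar beside each group is the mean ± SD (n = 3), cut off at 0 for BCH2. In PDS, LCYB, LUT2, LUT5, ZEP and NPQ1 all red points lie below all blue points, and in PSY, LUT1, BCH1 and BCH2 the groups overlap.

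Both lycopene cyclases were lower in each overexpressor library than in any wild-type library, and neither passed the test. LCYB, lycopene beta-cyclase (AT3G10230, chromosome 3, 3164075 to 3166038), had 15.9, 17.6 and 23.6 FPKM in EsANAC029-OE and 24.6, 26.7 and 28.4 FPKM in wild type. On the log2 scale the difference was −0.48 (SE 0.19, limma adjusted p = 0.162). LUT2, lycopene epsilon-cyclase, which opens the branch to lutein (AT5G57030, chromosome 5, 23077120 to 23080096), had 9.52, 24.5 and 36.7 FPKM in EsANAC029-OE and 41.0, 40.02 and 44.7 FPKM in wild type. Replicate 1 was far below the other overexpressor libraries, and the log2 difference was −0.99 (SE 0.455, limma adjusted p = 0.217). The values of the groups did not overlap in 6 of the 10 members, each time lower in the overexpressor. Over all tested genes 39.9% had no overlap and 20.3% had each overexpressor value below each wild-type value.

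The hydroxylases of the lutein branch are the cytochrome P450 enzymes LUT5, which acts on the beta ring, and LUT1, which acts on the epsilon ring. LUT5, or CYP97A3 (AT1G31800, chromosome 1, 11396402 to 11399714), had 11.7, 37.9 and 54.3 FPKM in EsANAC029-OE and 71.0, 59.2 and 71.5 FPKM in wild type (log2 fold change −1.18, SE 0.532, limma adjusted p = 0.209). LUT1, or CYP97C1 (AT3G53130, chromosome 3, 19692757 to 19697542), had 3.00, 8.05 and 14.3 FPKM in EsANAC029-OE and 13.3, 10.6 and 12.9 FPKM in wild type (log2 fold change −0.68, SE 0.475, limma adjusted p = 0.389). Both were lowest in replicate 1 and highest in replicate 3 of the overexpressor, and in LUT1 replicate 3 lay above wild type. LUT1 shares 39.7% of its span with AT3G53140, a gene on the same strand that is listed at 0 in all 6 libraries.

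BCH1 and BCH2, the non-heme hydroxylases that make zeaxanthin from beta-carotene, both had groups that overlapped, and neither passed the test. BCH1 (AT4G25700, chromosome 4, 13093869 to 13096049) had 20.03, 13.4 and 11.8 FPKM in EsANAC029-OE and 17.8, 12.0 and 14.2 FPKM in wild type. The groups overlapped throughout, with a log2 fold change of 0.020 whose 95% interval ran from −0.58 to 0.62 (limma adjusted p = 0.969). Its sign turned under some alternatives, with −0.19 without EsANAC029-OE replicate 1. BCH2 (AT5G52570, chromosome 5, 21334793 to 21337126) had 4.53, 0.786 and 0.560 FPKM in EsANAC029-OE and 1.42, 7.14 and 6.07 FPKM in wild type. It was the weakest member, and 1 library of each group went against its group: replicate 1 was high in the overexpressor and low in wild type. The log2 difference was −1.06 (SE 0.655, limma adjusted p = 0.336), and −1.63 without EsANAC029-OE replicate 1 (limma adjusted p = 0.093).

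The enzymes of the xanthophyll cycle, ZEP and NPQ1, had the lowest fold changes of the 10 members, although BCH2 lay below NPQ1 without EsANAC029-OE replicate 1 (−1.63 against −1.41) and with library weights (−1.68 against −1.37). ZEP, zeaxanthin epoxidase, also known as ABA1 (AT5G67030, chromosome 5, 26753469 to 26757402), had 29.1, 19.9 and 17.7 FPKM in EsANAC029-OE and 115, 139 and 135 FPKM in wild type. The highest overexpressor library was far below the lowest wild-type library, and of the 3 genes that fell, ZEP alone had its highest overexpressor level in replicate 1. It fell by 2.52 on the log2 scale (SE 0.225, limma adjusted p = 0.00605). In order of fold change from the lowest it was number 111 of 17221 tested genes. The fall was −2.72 without EsANAC029-OE replicate 1 and −2.16 with scaling by library size alone. The call was lost in the fit without wild type replicate 3 (limma adjusted p = 0.0568) and with a replicate block (0.0578).
NPQ1, violaxanthin de-epoxidase, the enzyme that runs the cycle in the other direction (AT1G08550, chromosome 1, 2706868 to 2709988), had 17.7, 22.4 and 41.9 FPKM in EsANAC029-OE and 85.0, 83.3 and 82.1 FPKM in wild type. The wild-type libraries were close together and the overexpressor libraries all lay below them, with replicate 3 highest. A gene on the opposite strand, AT1G08560, overlaps 14.9% of its span and was at 0.817, 25.6 and 3.65 FPKM in EsANAC029-OE and at 5.09, 7.39 and 4.93 FPKM in wild type. NPQ1 fell by 1.67 on the log2 scale (SE 0.315, limma adjusted p = 0.0335). The call was lost by limma-voom on recovered reads (limma adjusted p = 0.0542), with no filter on low values (0.052), without EsANAC029-OE replicate 2 (0.0992) and without wild type replicate 1, 2 or 3 (0.126, 0.127 and 0.142). It was also lost with a replicate block (limma adjusted p = 0.0935).

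**Figure D2:**
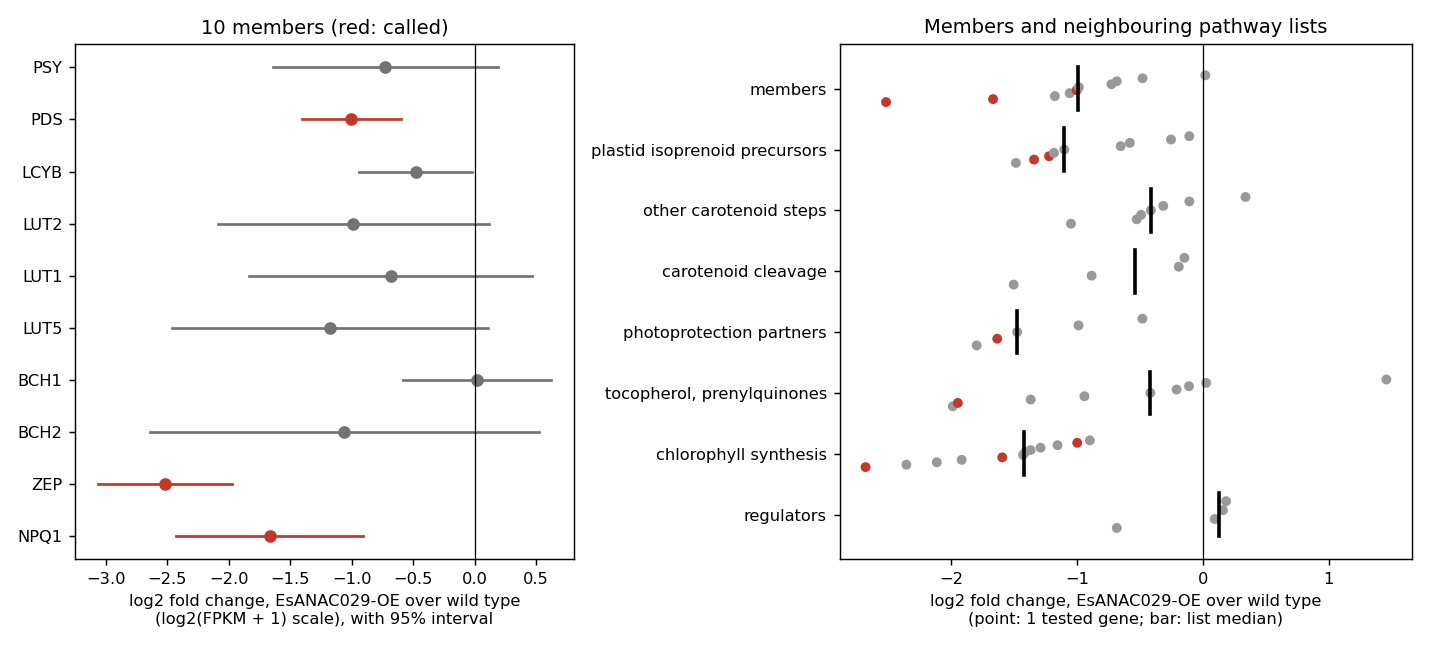
Left, log2 fold change of EsANAC029-OE over wild type for each member on the log2(FPKM + 1) scale, with its 95% interval by limma; the intervals of ZEP, NPQ1, PDS and LCYB lie below 0, and red marks the 3 members that fell. Right, the same value for each tested gene of the members and of 7 other lists, with a bar at each list's median, from −1.48 in photoprotection partners to 0.13 in regulators.

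In wild type the level per gene length was highest for ZEP (130 ± 13.0 FPKM, SD, n = 3), followed by PSY (103 ± 0.904), NPQ1 (83.4 ± 1.45), LUT5 (67.2 ± 6.96), PDS (61.6 ± 3.395), LUT2 (41.9 ± 2.47), LCYB (26.6 ± 1.93), BCH1 (14.7 ± 2.91), LUT1 (12.3 ± 1.44) and BCH2 (4.88 ± 3.04). Neighbours in this order overlapped only for LUT5 and PDS and for BCH1 and LUT1. In EsANAC029-OE the order began with PSY (68.0 ± 35.1 FPKM, SD, n = 3) and LUT5 (34.6 ± 21.5), ZEP was sixth (22.3 ± 6.05), and BCH2 was again last (1.96 ± 2.23). There each neighbouring pair overlapped. The 10 members together summed to 174, 236 and 342 FPKM in EsANAC029-OE replicates 1, 2 and 3, and to 533, 540 and 565 FPKM in wild type.

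Shares of that sum do not depend on how libraries are scaled to each other. ZEP made up 16.7, 8.45 and 5.19% of it in EsANAC029-OE replicates 1, 2 and 3 and 21.6, 25.8 and 24.0% in wild type. NPQ1 made up 10.2, 9.50 and 12.3% in EsANAC029-OE and 16.0, 15.4 and 14.5% in wild type. Both shares were thus lower in each overexpressor library. The share of LCYB was higher in each, at 9.10, 7.47 and 6.89% in EsANAC029-OE and 4.62, 4.95 and 5.03% in wild type. PSY took 20.9, 26.2 and 31.0% in EsANAC029-OE and 19.4, 19.0 and 18.5% in wild type, again without overlap. BCH1 took 11.5, 5.66 and 3.46% in EsANAC029-OE and 3.34, 2.22 and 2.52% in wild type, also higher in each overexpressor library. Since shares add up to the whole, a lower share of ZEP raises the others, and the level of LCYB itself was lower in each overexpressor library. The shares of PDS and LUT2 overlapped between groups. PDS was at 15.2, 12.6 and 10.3% in EsANAC029-OE and 10.9 to 11.6% in wild type, and LUT2 at 5.46, 10.4 and 10.7% in EsANAC029-OE and 7.41 to 7.91% in wild type.

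**Figure D3:**
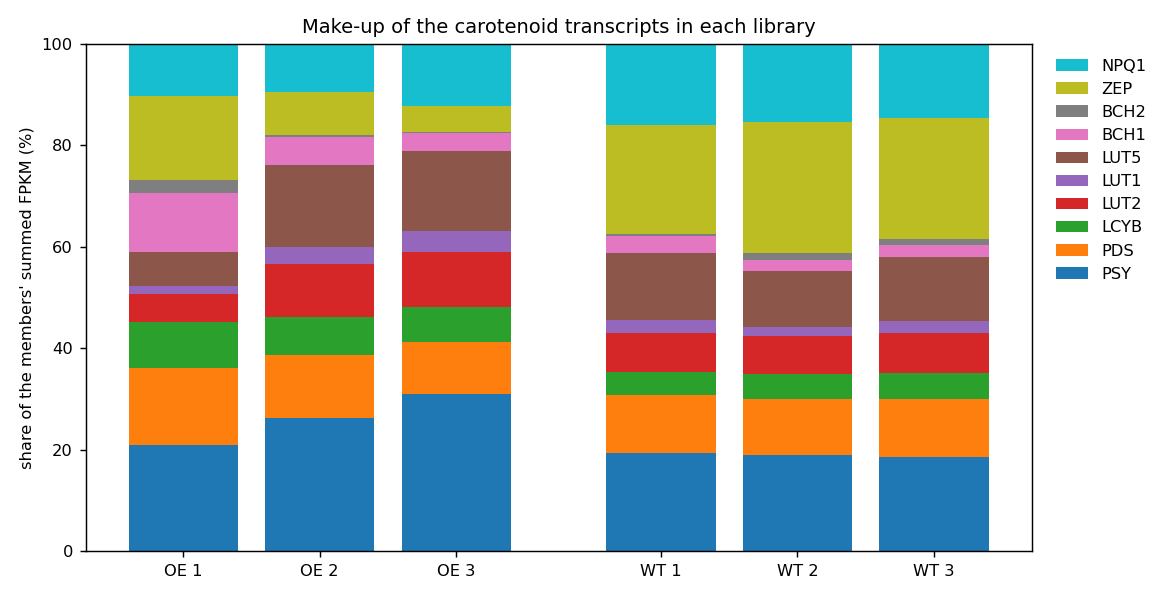
Share of each member in the summed FPKM of the 10 members, in %, for the 3 EsANAC029-OE libraries (OE) and the 3 wild-type libraries (WT). The ZEP segment is 5.19 to 16.7% in the overexpressor and 21.6 to 25.8% in wild type.

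The overexpressor libraries differed from each other in the size of the difference. Against the wild-type mean on the log2(FPKM + 1) scale, the median difference over the 10 members took the values −1.60, −0.78 and −0.28 for EsANAC029-OE replicates 1 to 3. The same medians over all tested genes were 0.018, −0.025 and −0.016. LUT5 differed by −2.42 in replicate 1, −0.81 in replicate 2 and −0.30 in replicate 3. LUT2 differed by −2.03, −0.75 and −0.18 and LUT1 by −1.72, −0.54 and 0.22 in the same libraries. Without EsANAC029-OE replicate 1 the fold change on the log2 scale shrank to −0.55 for LUT5, −0.46 for LUT2, −0.16 for LUT1 and −0.35 for PSY. ZEP ran in the other order, with −2.11 in replicate 1, −2.64 in replicate 2 and −2.80 in replicate 3. So did BCH1, with 0.44, −0.11 and −0.27, and BCH2, with 0.093, −1.54 and −1.73. The summed green-leaf markers were lowest in replicate 1 and highest in replicate 3, the order of the lutein genes and of PSY, PDS, LCYB and NPQ1. The part of these markers in the differences was not tested. In such bulk libraries fewer green cells and less RNA per green cell cannot be told apart.

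**Figure D4:**
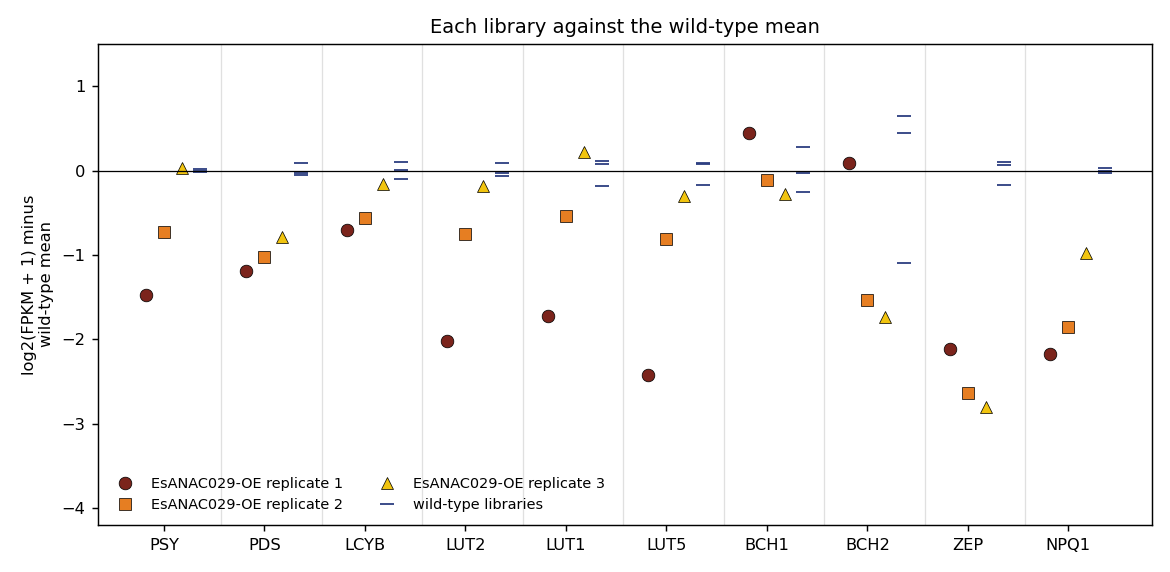
Difference of each library from the wild-type mean on the log2(FPKM + 1) scale, for each member; filled symbols are the 3 EsANAC029-OE libraries and blue dashes the 3 wild-type libraries. Replicate 1 of the overexpressor is lowest for PSY, PDS, LCYB, LUT2, LUT1, LUT5 and NPQ1, and highest for BCH1, BCH2 and ZEP.

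Ratios of members within a library compare steps that meet in the pathway. With 3 libraries against 3 an exact permutation test cannot go below p = 0.1, so none of the 5 ratios could pass 0.05. The ratio of ZEP to NPQ1, the opposed enzymes of the cycle, was 1.64, 0.889 and 0.423 in EsANAC029-OE replicates 1, 2 and 3 and 1.35, 1.67 and 1.65 in wild type. Replicate 1 kept the wild-type proportion while replicates 2 and 3 had less ZEP than NPQ1 (two-sided exact permutation p = 0.2, adjusted 0.25). The ratio of LCYB to LUT2, the cyclases at the branch point, was 1.67, 0.719 and 0.642 in EsANAC029-OE and 0.6004, 0.668 and 0.636 in wild type (exact permutation p = 0.2, adjusted 0.25). Here replicate 1 alone left the wild-type range by a wide margin, and without it the log2 difference was 0.098, against 0.53 with all libraries. The ratio of LUT5 to LUT1 was 3.89, 4.70 and 3.79 in EsANAC029-OE and 5.35, 5.58 and 5.55 in wild type, without overlap (exact permutation p = 0.1, adjusted 0.25). The ratio of PSY to PDS was 1.38, 2.09 and 3.01 in EsANAC029-OE and 1.71, 1.74 and 1.59 in wild type (exact permutation p = 0.5, adjusted 0.5). Its log2 difference of 0.29 shrank to 0.013 without EsANAC029-OE replicate 3. The ratio of BCH1 to BCH2 ranged from 4.42 to 21.1 in EsANAC029-OE and from 1.68 to 12.5 in wild type (exact permutation p = 0.2, adjusted 0.25).

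**Figure D5:**
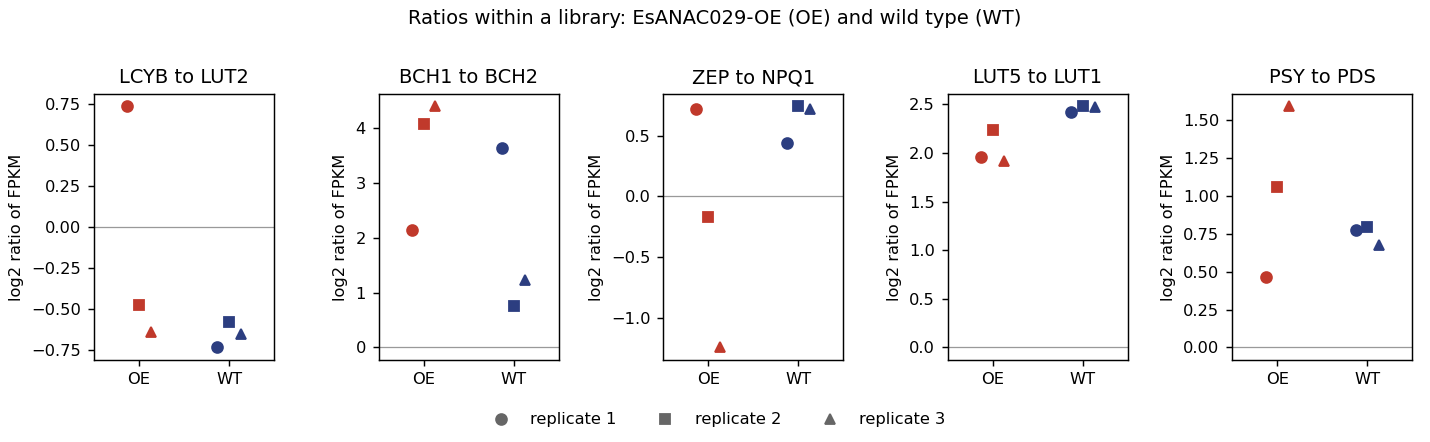
Log2 of the FPKM ratio between paired members within each library, with EsANAC029-OE (OE, red) left of wild type (WT, blue) and a symbol for each replicate number. Only LUT5 to LUT1 separates the groups, with linear ratios of 3.79 to 4.70 in the overexpressor and 5.35 to 5.58 in wild type.

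Genes around the pathway were read from 7 lists. Of the 50 tested genes in these lists 7 fell and none rose, against 3.58% of all tested genes that fell. The count was 1 without EsANAC029-OE replicate 2 or without wild type replicate 1 or 2, and 0 without wild type replicate 3. Upstream, 2 of 9 tested genes of plastid isoprenoid precursor synthesis fell. They were HDR, the reductase that releases the final isoprenoid units (63.8, 65.1 and 62.3 FPKM in EsANAC029-OE, 159, 156 and 174 FPKM in wild type), and HDS, the enzyme before it (91.8, 72.2 and 100.3 FPKM in EsANAC029-OE, 211, 199 and 205 FPKM in wild type). HDR fell by 1.34 on the log2 scale (limma adjusted p = 0.0121) and HDS by 1.22 (limma adjusted p = 0.025). The list's median log2 fold change was −1.10. GGPPS11, which makes geranylgeranyl diphosphate, was listed at 0 in all 6 libraries. A noncoding gene on the opposite strand covers 85.0% of its span and was also listed at 0. As the handling of strand in counting is not known, these values cannot show whether GGPPS11 was expressed.

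Of the 7 other carotenoid steps and helpers none rose or fell by limma or by limma-voom on recovered reads. An unadjusted p under 0.05 was found for 2 (28.6%), near the 28.3% of all tested genes. The smallest p belonged to ZISO, the zeta-carotene isomerase (10.4 ± 3.14 FPKM in EsANAC029-OE and 22.0 ± 2.49 in wild type, SD, n = 3 each, limma adjusted p = 0.056), and CRTISO, the carotenoid isomerase (11.8 ± 3.01 and 17.1 ± 0.844 FPKM in the same order, limma adjusted p = 0.162). The list's median was −0.41. Among genes of carotenoid cleavage 4 of 10 were tested and none rose or fell by limma or limma-voom. Of the 4, 2 had an unadjusted p under 0.05, against 28.3% of all tested genes. CCD4, which breaks down carotenoids in plastids, had 17.8 ± 6.95 FPKM in EsANAC029-OE and 50.8 ± 15.0 in wild type (SD, n = 3 each, limma adjusted p = 0.0567), and CCD1 had 110 ± 26.2 FPKM in EsANAC029-OE and 200 ± 10.7 in wild type (SD, n = 3 each, limma adjusted p = 0.0732). The median of the 4 was −0.54.

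Of 5 photoprotection partners 1 fell and the median was −1.48. It was SOQ1, a thylakoid protein that prevents a slow form of quenching, with 13.5, 20.3 and 31.0 FPKM in EsANAC029-OE and 63.9, 61.4 and 72.2 FPKM in wild type (log2 fold change −1.63, limma adjusted p = 0.0318). Of 9 genes of tocopherol and prenylquinone synthesis 1 fell, with a median of −0.42. It was VTE1, tocopherol cyclase, with 2.40, 3.08 and 2.90 FPKM in EsANAC029-OE and 12.0, 14.7 and 14.2 FPKM in wild type (log2 fold change −1.95, limma adjusted p = 0.0056). Of 12 tested genes of chlorophyll synthesis 3 fell, with a median of −1.42, and these were CHLH, a subunit of magnesium chelatase (−2.68, limma adjusted p = 0.0237), HEMA1, glutamyl-tRNA reductase (−1.59, 0.0227), and CAO, which makes chlorophyll b (−0.998, 0.0456). The calls of SOQ1 and CAO were lost by limma-voom (limma adjusted p = 0.0519 and 0.0602). Without EsANAC029-OE replicate 1, when 1597 of 16795 tested genes fell, 24 genes of the 7 lists and 3 members did so.

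None of the 4 listed regulators of carotenoid genes rose or fell by limma or limma-voom. Against 28.3% of all tested genes, 1 of the 4 (25%) had an unadjusted p under 0.05. This was PIF1, a bHLH repressor of PSY, with 4.90, 3.68 and 5.62 FPKM in EsANAC029-OE and 8.99, 7.09 and 8.40 FPKM in wild type. Its groups did not overlap, as in 39.9% of all tested genes (log2 fold change −0.68, limma adjusted p = 0.0846). HY5, an activator of light-induced genes, had 1.95 ± 0.753 FPKM in EsANAC029-OE and 1.56 ± 0.315 in wild type (SD, n = 3 each). RAP2.2, the factor named above for ATCTA, had 36.4 ± 5.25 FPKM in EsANAC029-OE and 32.4 ± 3.58 in wild type (SD, n = 3 each). SDG8, a histone methyltransferase needed for CRTISO expression, had 10.95 ± 3.30 FPKM in EsANAC029-OE and 9.92 ± 0.465 in wild type (SD, n = 3 each). The last 3 overlapped between groups.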

How the data were processed

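Paired-end 150-base RNA sequencing of 25-day-old seedlings gave the values. The submitters' processing notes name TAIR10 as the build and list HISAT2, edgeR and CASAVA 1.8 as tools. The sources used here do not say what each tool did or how strand was handled in counting. The authors deposited FPKM beside gene length (unit: other). The header names no unit; FPKM was read from the values, since multiplying by gene length gave whole reads after 1 scaling per library (100% of values, tolerance 1e-06). The authors' scaling equals median-of-ratios factors of the recovered reads.

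The 17221 genes that reached 1 FPKM in 3 or more of the 6 libraries were tested as log2(FPKM + 1) with limma-trend (limma 3.58.1, R 4.3.3), genotype as the only term, adjusted by Benjamini-Hochberg over all of them. Fold changes of low genes are understated. All 10 members passed. Ratios and marker sums were compared by exact permutation (scipy 1.17.1). Without strand information, reads of overlapping genes cannot be told apart.

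Members and lists were chosen with earlier results of these data known. The genes named are the members, the called genes of each list (or the 2 with the smallest p), and all regulators. Alternatives were other scalings, filters, pseudocounts, thresholds and weights, limma-voom, a replicate block and leaving out each library.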

Additional observations from a re-analysis of the deposited data

How the results depend on the processing

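Of the 10 members 3 fell under pseudocount 0.1, the filter at 1 FPKM in all 6 libraries (where BCH2 was not tested), upper-quartile scaling and library weights, and 2 with no filter, scaling by library size alone and limma-voom. With a threshold of 0.01 there was 1 (ZEP). Leaving out 1 library gave 0 to 3 members. No member rose in any of these fits. Over all genes 616 fell and 743 rose; the counts were 359 and 460 with no filter, 511 and 485 with the filter in all 6 libraries, 377 and 2749 with library size alone, 366 and 455 with limma-voom, 1552 and 1421 with library weights and 34 and 83 at 0.01. Leaving out 1 library gave 11 to 1597 fallen and 48 to 1151 risen genes. Library size alone moved the median of all genes to 0.311, so members stand lower against that median than their values show. In the other 7 lists 7 genes fell and none rose; 20 fell with library weights, 1 fell at 0.01, 1 rose with library size alone, and leaving out 1 library gave 0 to 24 fallen and 0 to 1 risen. Each fit without a library has fewer samples, and the counts moved both ways. There were 1597 fallen genes without EsANAC029-OE replicate 1 and 11 without wild type replicate 3, against 616 with all libraries. The cause of these moves was not tested.

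The labels give no pairing of libraries beyond a shared replicate number. The correlations of same-numbered deviations from the group means were −0.199, −0.0531 and −0.105. Those of unlike numbers ran from −0.318 to 0.36. With 3 libraries per group, such values cannot show whether same-numbered libraries share a batch. With a replicate block 0 members and 0 list genes fell, and over all genes 3 fell and 13 rose. The sign of BCH1 turned with library weights (−0.13), without EsANAC029-OE replicate 1 (−0.19) and without wild type replicate 2 (−0.11), within −0.19 to 0.17 over all fits that leave out 1 library. That of SDG8 turned with library weights (−0.034) and without EsANAC029-OE replicate 1 (−0.11, range to 0.29), and that of HY5 without EsANAC029-OE replicate 2 (−0.015, range to 0.31). The differences in marker sums turned without EsANAC029-OE replicate 2 for root (−3.40 FPKM, range to 48.6) and flower (−0.463 FPKM, range to 1.21). The 5 ratios kept their sign in each alternative run, but not their size. On the log2 scale, leaving out 1 library gave 0.013 to 0.58 for PSY to PDS, 0.098 to 0.79 for LCYB to LUT2, −1.34 to −0.36 for ZEP to NPQ1, 1.11 to 2.55 for BCH1 to BCH2 and −0.52 to −0.36 for LUT5 to LUT1. BCH2, at 16 reads in its lowest library, is the member most limited by depth.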

Other observations

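Some genes of carotenoid cleavage are given as values, chosen after they were seen. CCD8 and NCED2 did not reach 1 FPKM in 3 libraries and so were not among the genes tested. With no filter on low values limma tested 9 of the 10 genes of this list and called none, with 5 at an unadjusted p under 0.05. By log2 fold change CCD1 (−0.88) and CCD4 (−1.50) were lower, and CCD8 (2.21), NCED2 (0.895) and NCED9 (0.285) were higher. The share of all genes at that p was not computed for this fit. In that fit the limma adjusted p was 0.196 for CCD8 and 0.156 for NCED2, and limma-voom, run on the filtered genes only, called none of 4. CCD8, a dioxygenase of strigolactone synthesis, had 13.1, 4.42 and 0.295 FPKM in the overexpressor (replicates 1, 2 and 3) and a listed value of 0 in all 3 libraries of wild type; a gene on the opposite strand overlaps 330 of its 3265 bases. NCED2, an enzyme that cleaves epoxycarotenoids toward abscisic acid, was at 1.77, 1.06 and 0.204 FPKM in EsANAC029-OE and at 0 to 0.0672 FPKM in wild type. NCED3, the stress-induced member of that family, was at 15.5, 2.19 and 2.00 FPKM in EsANAC029-OE and at 4.00, 5.56 and 6.16 FPKM in wild type, and did not pass the test (limma adjusted p = 0.876). It was thus above wild type in replicate 1 and below it in replicates 2 and 3.

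VTE2 and PTOX, which share isoprenoid or quinone substrates, were likewise chosen after their values were seen. Their means were not lower in the overexpressor, but neither gene passed the test. In the tocopherol and prenylquinone list, which holds VTE2, 1 gene rose with scaling by library size alone and 1 without EsANAC029-OE replicate 1. VTE2, the homogentisate phytyltransferase that begins tocopherol synthesis, was at 42.6, 16.4 and 10.5 FPKM in EsANAC029-OE and at 5.46, 6.69 and 7.44 FPKM in wild type. The groups of VTE2 did not overlap, as in 39.9% of all tested genes (log2 fold change 1.46, limma adjusted p = 0.113). PTOX, the plastid terminal oxidase that serves carotenoid desaturation, was at 85.3 FPKM in EsANAC029-OE replicate 1, at 34.3 and 35.9 FPKM in replicates 2 and 3, and at 35.4, 40.2 and 36.1 FPKM in wild type. Its groups overlapped (log2 fold change 0.34, limma adjusted p = 0.577).

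PYK10, a beta-glucosidase of roots and hypocotyls, was at 104 FPKM in EsANAC029-OE replicate 2, at 0.193 and 0.0246 FPKM in replicates 1 and 3, and at 0.887 to 6.91 FPKM in wild type. The other 4 root markers were under 0.3 FPKM in each library.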
